A study of Mus musculus with 41 samples.

Results

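The genes described here are 36 of the 19434 genes of the deposited count table: 20 genes of aminoacyl-tRNA synthetases and 16 genes of amino acid supply and stress that the transcription factor ATF4 is known to control or that answer to it. They were chosen by name, and all 36 symbols were found in the table. By role they fall into 20 synthetase genes, 2 transcription factor genes (Atf4 and Ddit3), 4 feedback and stress genes (Trib3, Chac1, Sesn2 and Eif4ebp1), 6 genes of amino acid and one-carbon synthesis (Asns, Psat1, Phgdh, Psph, Shmt2 and Mthfd2) and 4 transporter genes (Slc7a11, Slc7a5, Slc3a2 and Slc1a5). The RNA came from sorted mouse regulatory T cells, a CD4+ T cell type defined by the factor FOXP3, in a study of UHRF1, which helps copy DNA methylation to new strands. In the chimera experiment, CD25hi Foxp3-YFP+ cells were taken from 8-week-old females: 4 chimeric knockout mice (Uhrf1fl/flFoxp3+/YFP-Cre) and 4 control mice (Uhrf1+/+Foxp3YFP-Cre/YFP-Cre). In the pulse-chase experiment, 8-week-old mice had tamoxifen in their chow for 2 weeks, followed by 4 weeks on the standard diet, and were either Uhrf1fl/flFoxp3GFP-CreERT2Rosa26SorCAG-tdTomato (fl/fl, 6 libraries per population) or Uhrf1+/+Foxp3GFP-CreERT2Rosa26SorCAG-tdTomato (control, 5 per population). From these mice were sorted ex-Foxp3 cells, which carry tdTomato but no Foxp3-GFP, labeled Treg cells, which carry both, and post-tamoxifen Treg cells, which carry Foxp3-GFP alone. In every mouse of both genotypes the Cre is driven from Foxp3, and all pulse-chase mice carry the reporter and received tamoxifen. The post-tamoxifen cells lack the tdTomato label that marks Cre activity, so in fl/fl mice they need not have lost Uhrf1. In the chimeric knockout females 1 X chromosome carries the Cre, so only part of their Foxp3+ cells can express it, and the YFP+ gate takes those.

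Aminoacyl-tRNA synthetases load each tRNA with its amino acid and so set the supply for translation. In mammals, several of them (those for aspartate, glutamate and proline, isoleucine, lysine, leucine, methionine, glutamine and arginine) sit together in a multi-synthetase complex. When uncharged tRNA accumulates or other stress arises, kinases phosphorylate eIF2 and ATF4 is translated more, largely without a change in its mRNA. ATF4 then binds composite sites in DNA and raises genes for amino acid synthesis, transport and many cytosolic synthetases. In T cells, activation and growth signals through mTORC1 and MYC also raise this program, with serine synthesis and the leucine transporter SLC7A5 among its best known parts.

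The composite ATF4 sequence was looked for in the promoters of these genes, since it is the feature that the list presumes. The letters searched were TGATGNAA, on both strands, in the window from 250 bases before to 50 bases after each RefSeq start (GRCm38.p6). Of the 36 genes, 26 had a promoter entry, and 9 of these (34.6%) held a match, against 1219 of 27025 genes with an entry (4.51%). These 9 were Aars, Gars, Iars, Tars, Yars, Asns, Trib3, Chac1 and Slc7a11, several of them known ATF4 targets, so the share is a description of the list and not independent evidence. The E-box CACGTG, also searched on both strands, was found in 4 of the 26 (15.4%), Aars, Farsb, Iars and Tars, against 2187 of 27025 (8.09%), and none of its matches overlapped a composite match. The stretches below show a match each of Aars and Tars, which passed a test in the results that follow, and matches of the 4 classic targets that were lowest in these cells. Each is 30 bases in the gene's sense direction, 5′ to 3′, with the composite letters (or their reverse complement) in capitals.
Aars, 10 bases after the start (chr8:111033840-111033869, + strand): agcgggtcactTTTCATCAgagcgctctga
Tars, 15 bases before the start (chr15:11399655-11399684, - strand): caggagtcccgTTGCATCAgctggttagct
Asns, 23 bases before the start (chr6:7693214-7693243, - strand): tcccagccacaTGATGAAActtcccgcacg
Trib3, 15 bases after the start (chr2:152344028-152344057, - strand): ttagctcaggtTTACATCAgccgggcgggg
Chac1, 193 bases before the start (chr2:119351038-119351067, + strand): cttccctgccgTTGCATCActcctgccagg
Slc7a11, 66 bases before the start (chr3:50443651-50443680, - strand): cTGATGCAAacctggagaatTTGCATCAtc
Slc7a11 held a pair of matches on opposite strands within the same 30 bases. Phgdh, Psat1 and Shmt2, which carry much of the results below, had no match in this window. The 10 genes with no promoter entry were Cars, Hars, Lars, Nars, Rars, Vars, Wars, Slc7a5, Slc1a5 and Eif4ebp1.

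Total counts ran from 781437 to 5709702 per library. A level below is the count a gene would have in a TMM-scaled library of 1000000 counts (CPM), and the 2 experiments were scaled apart, so levels are compared within an experiment. Uhrf1 averaged 13.1 CPM in the 4 libraries labelled chimeric knockout and 25.2 CPM in the 4 chimera controls (log2 fold change -0.95, adjusted p = 0.0378), and the library labelled chimeric knockout 4 lay at the controls' level (22.3 CPM). In the pulse-chase experiment Uhrf1 did not pass the test between genotypes. It averaged 16.7 CPM in ex-Foxp3 fl/fl against 19.4 CPM in ex-Foxp3 control cells, 46.2 CPM in labeled fl/fl against 50.6 CPM in labeled control cells, and 84.9 CPM in post-tamoxifen fl/fl against 29.9 CPM in post-tamoxifen control cells (adjusted p = 0.976, 0.961 and 0.113). The counts do not separate exons, so they do not show whether the floxed part was lost, and the genotype comparisons below rest on the labels. Foxp3 averaged 61.1 CPM in ex-Foxp3 fl/fl and 109 CPM in ex-Foxp3 control libraries, against group means from 346 to 406 CPM in labeled and post-tamoxifen cells. The 7 T cell and Treg markers summed to between 2807 and 5480 CPM in all 41 libraries. Foxp3 was low in the libraries labelled post-tamoxifen fl/fl 3 (128 CPM) and post-tamoxifen control 2 (123 CPM). Sums over markers use CPM without the TMM factor. The sum of 17 cell division markers split each pulse-chase population by the number in the label: in post-tamoxifen fl/fl cells it was 3804 to 5563 CPM in numbers 1 to 3 and 695 to 1002 CPM in numbers 4 and above. The labels name no batch.

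Within the list, mRNA levels spanned a wide range, and several classic ATF4 targets had very few reads. The levels were not set against those of all genes. Per kb of exon, over the 33 pulse-chase libraries, Atf4 had the highest mean level of the 36 genes (73.3 CPM per kb), followed by Slc1a5, a glutamine transporter (51.7 CPM per kb). All 20 synthetases lay between 9.90 CPM per kb (Cars) and 47.9 CPM per kb (Gars). The one-carbon and serine genes Mthfd2, Phgdh and Shmt2 lay at 27.9, 23.0 and 20.7 CPM per kb, and Psph and Psat1 at 12.8 and 12.3 CPM per kb. Asparagine synthetase (Asns), the pseudokinase gene Trib3, the glutathione-degrading Chac1 and the cystine transporter gene Slc7a11 stood apart at the bottom. Their levels were 0.86, 0.64, 0.070 and 0.012 CPM per kb.

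**Figure D1:**
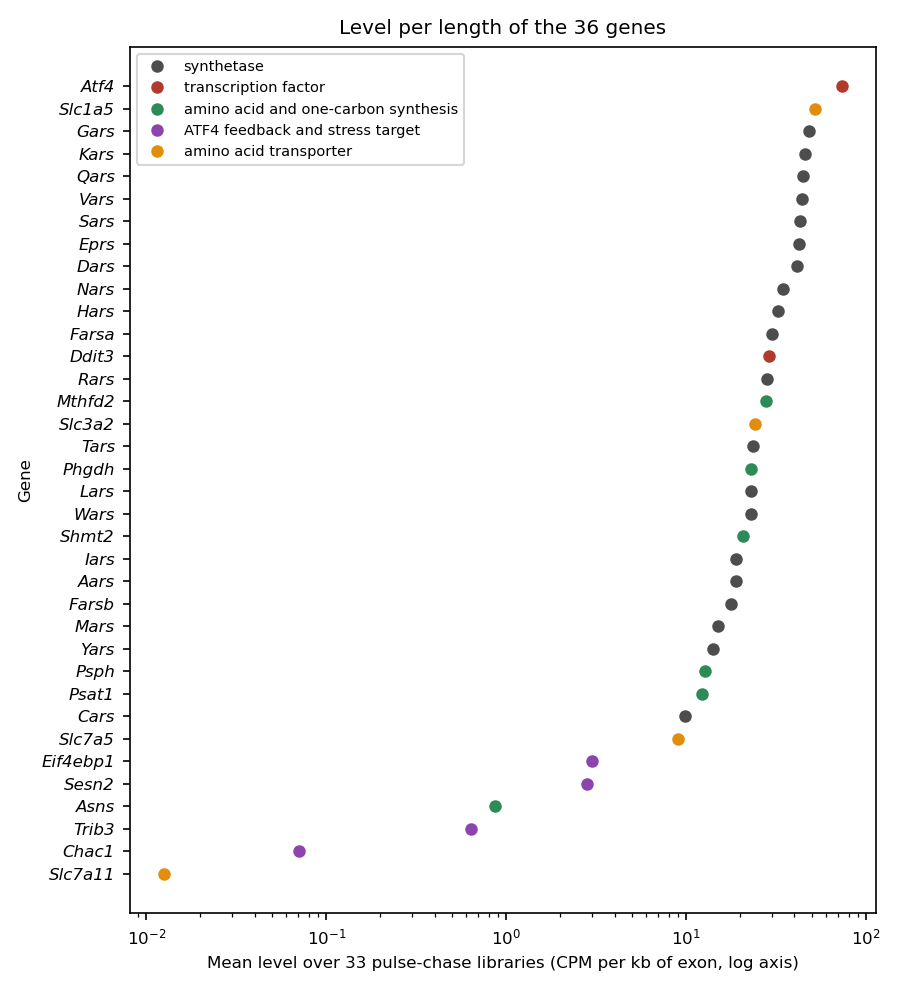
Mean level of each of the 36 genes over the 33 pulse-chase libraries, in CPM per kb of exon on a log axis, coloured by role. Atf4 is highest at 73.3 CPM per kb, the 20 synthetases lie between 9.90 and 47.9 CPM per kb, and Asns, Trib3, Chac1 and Slc7a11 are all below 1 CPM per kb.

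Slc7a11, Chac1 and Trib3 had too few reads to be tested in either experiment. Slc7a11 had 10 reads in all 33 pulse-chase libraries and 0 in 28 of them, Chac1 had 6 reads and 0 in 29, and Trib3 had 99 reads and 0 in 10. A count of 0 allows up to 3 reads, which is 0.873 to 3.84 CPM of the total count in those libraries, and covers counting error only. Trib3 reached 5.41 CPM in a post-tamoxifen fl/fl library, its highest value. Asns, which makes asparagine, was tested in the pulse-chase experiment with 130 reads in 33 libraries, and left out of the chimera test with 29 reads in 8. The tests below therefore cover 33 genes in the pulse-chase experiment and 32 in the chimera.

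Most synthetases varied less between libraries of a group than the synthesis enzymes of the list. The SD within groups, on a log2 scale of CPM + 1, ranged from 0.11 (Sars) to 0.34 (Rars) among the 20 synthetases and from 0.30 (Mthfd2) to 0.80 (Asns) among the 6 synthesis enzymes. Atf4 was among the steadiest (0.15), and the stress gene Sesn2 (0.56) and the translation repressor gene Eif4ebp1 (0.50) followed Asns at the other end among the genes tested. Among the genes tested, the group means spanned the widest log2 ranges for Asns (1.76), Slc7a5 (1.27), Sesn2 (0.94), Phgdh (0.88) and Psat1 (0.82). Of the 33 genes tested, 19 had their highest group mean in post-tamoxifen fl/fl cells, and 10 had their lowest in ex-Foxp3 control cells. The same counts over all genes were not made, so nothing particular to this list is read from them.

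Summed over the 36 genes, the level was 2247, 2382 and 2440 CPM (lowest, median, highest) in ex-Foxp3 fl/fl and 2234, 2356 and 2446 CPM in ex-Foxp3 control libraries. It was 2395, 2622 and 2699 CPM in labeled fl/fl against 2257, 2502 and 2680 CPM in labeled control libraries. In post-tamoxifen cells it was 2514, 2818 and 2961 CPM in fl/fl libraries, against 2320, 2364 and 2450 CPM in control libraries, and these groups did not overlap. In the chimera it was 2437, 2520 and 2600 CPM in knockout and 2477, 2573 and 2650 CPM in control libraries, which overlapped. In bulk RNA such as this, fewer cells of a type and less RNA per cell cannot be told apart.

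**Figure D2:**
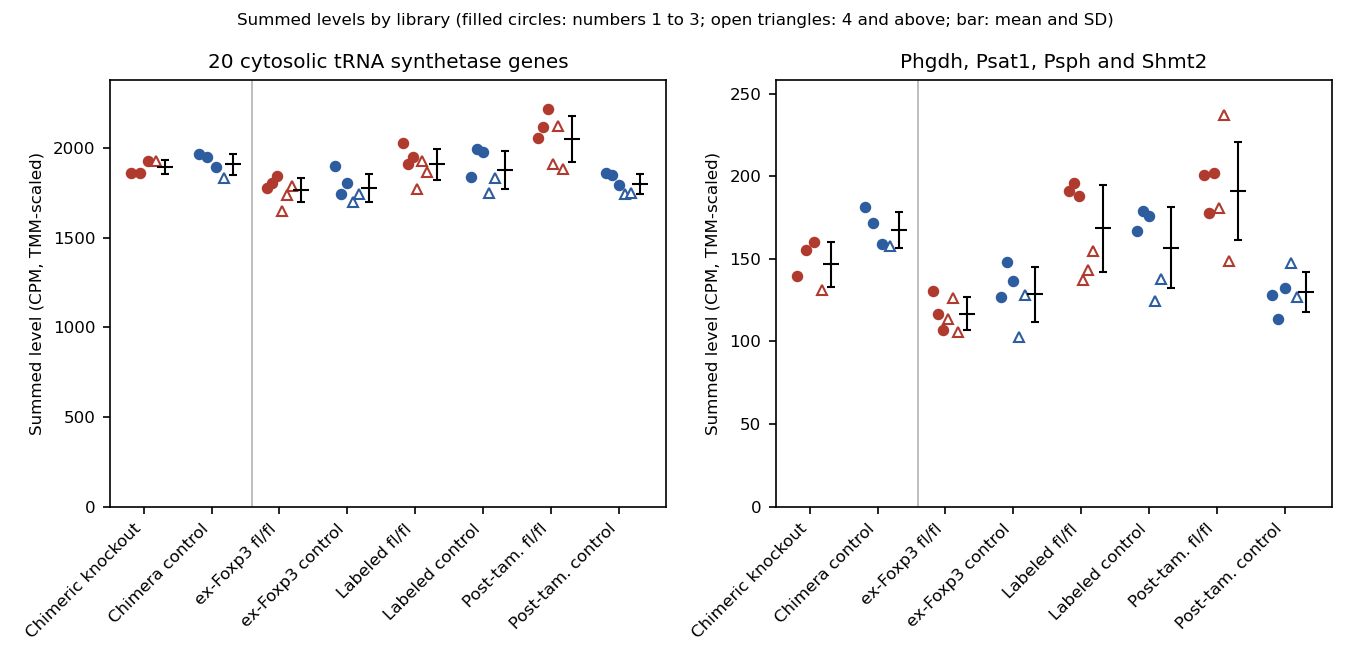
Summed level per library, in CPM, of the 20 synthetase genes (left) and of Phgdh, Psat1, Psph and Shmt2 (right), for the 8 groups; filled circles are libraries numbered 1 to 3, open triangles 4 and above, bars mean and SD, and the grey line parts the 2 experiments. Post-tamoxifen fl/fl libraries lie above post-tamoxifen control libraries in both panels (synthetases 1885 to 2217 against 1746 to 1860 CPM).

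Atf4 mRNA itself did not differ past the test in any comparison. In post-tamoxifen cells it was 126, 132 and 169.8 CPM (lowest, median, highest) in fl/fl libraries, against 127, 133, 121, 120.3 and 123 CPM in control libraries. In labeled cells it was 118, 128 and 163 CPM in fl/fl, against 114, 150.2, 117, 98.5 and 125 CPM in control libraries. Ex-Foxp3 cells had 103, 127 and 136 CPM in fl/fl, against 103, 121, 118, 118 and 109 CPM in control libraries. All 3 pairs of groups overlapped. The chimeric knockout libraries had 105, 119, 129 and 125 CPM, against 111, 114, 111 and 104 CPM in the chimera controls, again overlapping. The log2 fold change of fl/fl or knockout over control was 0.14, 0.14, 0.14 and 0.11 in these 4 comparisons, each with SE 0.10 and adjusted p from 0.401 to 0.769. Ddit3, which encodes the stress factor CHOP, did not pass in any comparison either (22.9 ± 4.82 CPM in labeled fl/fl, the lowest pulse-chase mean, and 28.7 ± 4.36 CPM in post-tamoxifen control, the highest; SD, n = 6 and 5). Ddit3 and Mars overlap on opposite strands at their 3′ ends only, and Ddit3 also overlaps the opposite-strand transcript Gm4189. Reads there may be shared, since the strand setting of the counting was not given in the sources used here.

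Post-tamoxifen fl/fl cells had more mRNA of 3 synthetases and 2 serine synthesis enzymes than post-tamoxifen control cells. Vars, Wars and Aars, the synthetases for valine, tryptophan and alanine, rose 1.45, 1.37 and 1.27 times. Phgdh, the first enzyme of serine synthesis from glycolysis, rose 1.59 times, and Psat1, the next enzyme, 1.77 times. By edgeR's quasi-likelihood test with Benjamini-Hochberg adjustment over 9921 genes, 5 of 33 genes were higher and 0 lower, where 3.90% of all genes tested were called higher and 7.23% in either direction. The log2 fold change was positive in 29 of the 33, with a median of 0.26 beside 0.0083 over all genes tested.

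Vars (chr17:35000987-35016322, mm10) had 141, 213 and 255 CPM (lowest, median, highest) in fl/fl libraries, against 180.1, 138, 121, 148 and 125 CPM in control libraries. Fl/fl libraries 4 and 6 overlapped the controls and the other 4 lay above them; the log2 fold change was 0.54 ± 0.13 (SE) with adjusted p = 0.0103. Wars (chr12:108860030-108894174) had 64.0, 70.5 and 106 CPM in fl/fl libraries, against 53.3, 52.1, 64.7, 50.6 and 60.9 CPM in control libraries. Only the lowest fl/fl library fell among the controls, and the log2 fold change was 0.45 ± 0.12 (adjusted p = 0.0202). Aars (chr8:111033144-111057664) had 96.5, 122 and 144 CPM in fl/fl libraries, against 78.6, 103, 98.0, 91.4 and 96.6 CPM in control libraries. Again 1 fl/fl library overlapped the controls; the log2 fold change was 0.34 ± 0.11 (adjusted p = 0.0401).

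Of the 2 serine genes, Psat1 (chr19:15904678-15947337) had 37.4, 48.4 and 64.0 CPM in fl/fl libraries, against 40.6, 22.5, 26.6, 28.6 and 23.8 CPM in control libraries. Control 1 lay within the fl/fl range and the other 4 below it (log2 fold change 0.83 ± 0.21, adjusted p = 0.0116). Phgdh (chr3:98313170-98339990) had 33.6, 65.7 and 71.6 CPM in fl/fl libraries, against 31.7, 32.9, 34.1, 51.0 and 33.9 CPM in control libraries. Fl/fl library 6 lay among the controls and control 4 stood above the other controls (log2 fold change 0.67 ± 0.18, adjusted p = 0.0176). The summed level of Phgdh, Psat1, Psph and Shmt2 was 149 to 237 CPM in fl/fl libraries and 114 to 148 CPM in control libraries.

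The other genes did not pass. Tars and Qars came nearest among the synthetases, at log2 fold changes of 0.36 and 0.30 (adjusted p = 0.0533 and 0.0643). Mthfd2, the mitochondrial folate enzyme, was at 0.46, and the transporters Slc7a5 and Slc1a5 at 0.49 and 0.31 (adjusted p = 0.0971, 0.157 and 0.0967). Asns had 28 reads in the 6 fl/fl libraries and 2 reads in the 5 controls, 4 of which had 0, and its adjusted p was 0.0653. All 8 synthetases of the multi-synthetase complex had a positive log2 fold change, from 0.030 to 0.30, and none passed; the 3 called synthetases were among the 12 outside it.

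**Figure D3:**
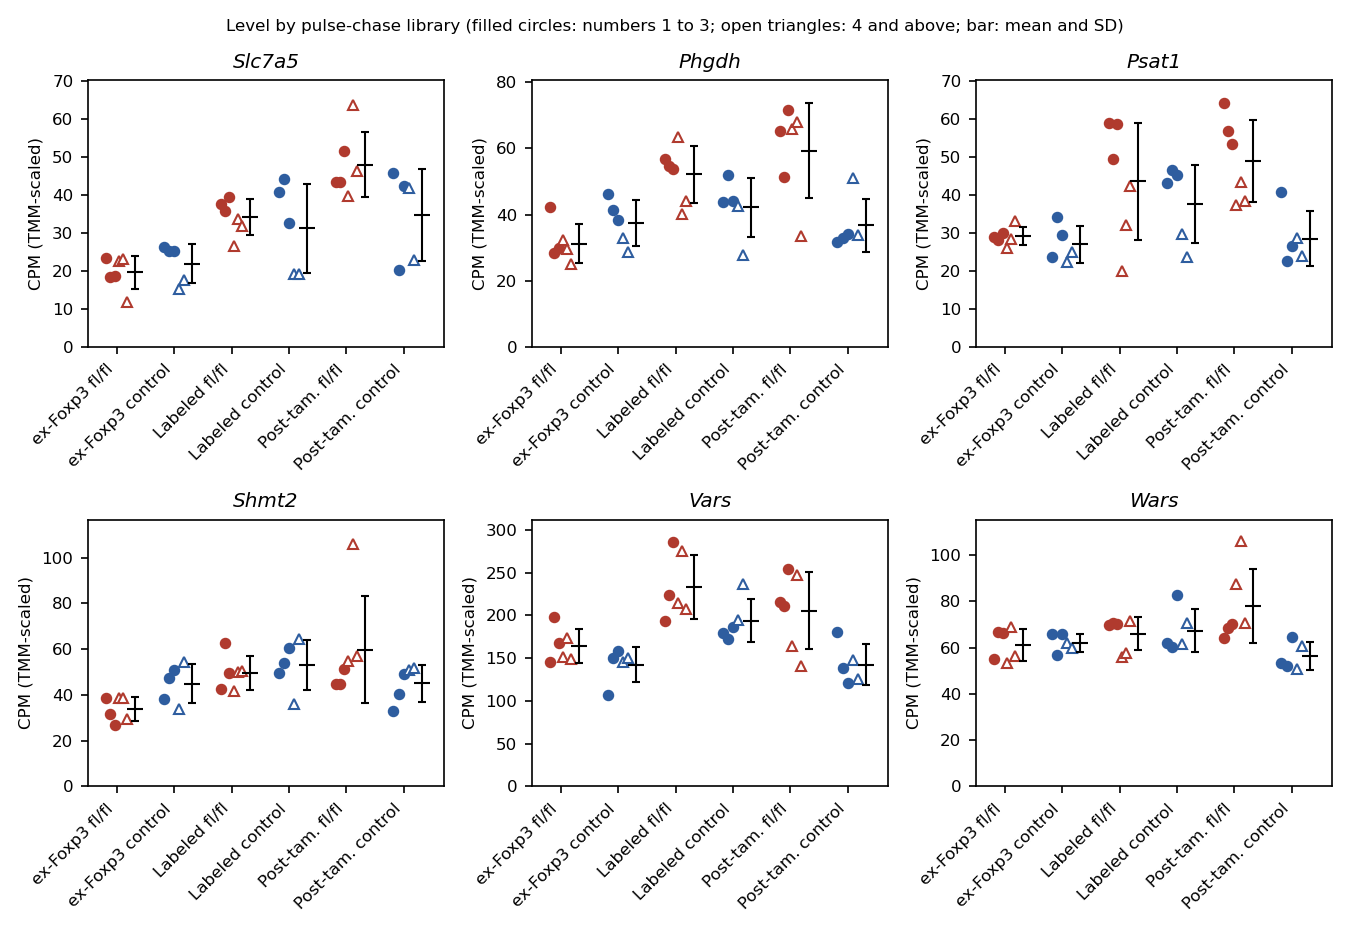
Level per pulse-chase library, in CPM, of Slc7a5, Phgdh, Psat1, Shmt2, Vars and Wars in the 6 groups; filled circles are libraries numbered 1 to 3, open triangles 4 and above, bars mean and SD. Slc7a5 is lowest in ex-Foxp3 fl/fl cells (11.9 to 23.3 CPM) and highest in post-tamoxifen fl/fl cells (39.7 to 63.7 CPM).

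Markers of dividing cells moved with this difference. The 17 cell division markers summed to 695, 2403 and 5563 CPM (lowest, median, highest) in post-tamoxifen fl/fl libraries and 525, 725 and 1985 CPM in post-tamoxifen control libraries. With the log2 of that sum as a further term, an alternative added after seeing the data, 1 of the 33 genes stayed past the threshold (Wars, adjusted p = 0.0403). Psat1 then had a log2 fold change of 0.39 and Phgdh 0.55 (adjusted p = 0.193 and 0.1003). That fit called 3.06% of all genes. In libraries numbered 1 to 3 alone 6 genes were called, where 13.4% of all genes were, and in those numbered 4 and above 0 of 32 tested were called, where 2.1% of all genes were. Psat1, for example, was at 1.04 in numbers 1 to 3 (adjusted p = 0.00165) and 0.59 in numbers 4 and above (adjusted p = 0.314). Of the 33 genes, 5 rose with the marker sum (Psat1, Psph, Gars, Hars and Rars), where 24.6% of all genes were called with it in either direction. The part of cell division in the genotype difference was not tested beyond these values.

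**Figure D4:**
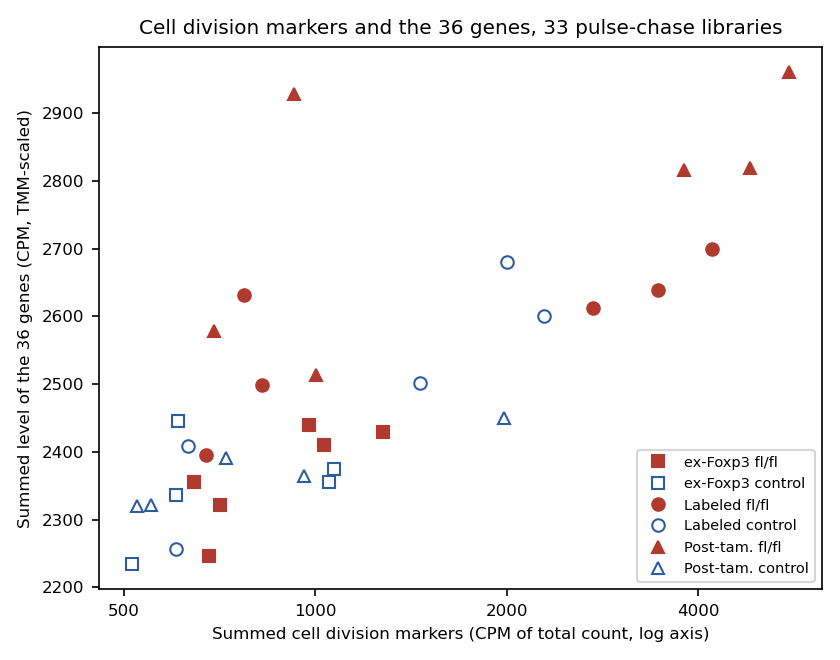
Summed level of the 36 genes (CPM of the TMM-scaled library) against the summed level of 17 cell division markers (CPM of the total count, log axis) in the 33 pulse-chase libraries; filled symbols are fl/fl, open ones control, and the shape gives the population. Post-tamoxifen fl/fl libraries of numbers 1 to 3 have 2816 to 2961 CPM of the 36 genes, and those of numbers 4 and above 2514 to 2928 CPM.

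Markers of other cells were also present in the post-tamoxifen gate. The 11 macrophage and other myeloid markers in the table summed to 92.4, 239 and 1109 CPM in fl/fl libraries and 21.9, 304 and 719 CPM in control libraries, so these groups overlapped. The 7 B and plasma cell markers summed to 8.46, 90.5 and 559 CPM in fl/fl and 3.81, 12.3 and 84.5 CPM in control libraries. In fl/fl libraries this sum was 169 to 559 CPM in numbers 1 to 3 and 8.46 to 11.8 CPM in numbers 4 and above. In control libraries it was 3.81 to 84.5 CPM in numbers 1 to 3 and 8.58 to 39.1 CPM in numbers 4 and above. With a myeloid marker term, also added after seeing the data, 6 of the 33 genes were called, where 8.35% of all genes were. Without the libraries labelled post-tamoxifen fl/fl 3 and control 2, low in Foxp3, 4 were called (Psat1, Tars, Vars and Wars), where 6.27% of all genes were. Aars and Phgdh lost their calls in that fit. The 5 stromal markers (collagens, Pecam1 and Epcam) summed to 154, 189 and 247 CPM in fl/fl and 244, 308 and 359 CPM in control libraries. They were present in the other gates too, at 149 to 230 CPM in ex-Foxp3 and 147 to 254 CPM in labeled libraries of both genotypes. The part of the B cell and stromal markers was not tested. Leaving out 1 library gave 3 genes without control 3, control 4 or fl/fl 3, 11 without fl/fl 4 and 8 without fl/fl 6. The share of all genes called in these fits is not given here. Aars lost its call without any of 7 of the 11 libraries (adjusted p up to 0.124), Phgdh without control 3 or fl/fl 3 (0.0540 and 0.0514), and Wars without control 4 (0.0570). Vars and Psat1 kept theirs without each of the 11. When only these 2 groups were fitted, Psat1 alone passed (adjusted p = 0.0433), where 1.57% of all genes did.

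Among the neighbours of the program, the eIF2 kinase gene Eif2ak2, which answers double-stranded RNA, was higher in post-tamoxifen fl/fl cells (90.1 CPM, against 66.0 CPM in control cells, log2 fold change 0.42, adjusted p = 0.0475). So was the eIF2 subunit gene Eif2s3x (212 CPM, against 165 CPM in control cells, log2 fold change 0.37, adjusted p = 0.0492). These were the 2 called of 16 genes of eIF2, its kinases and its phosphatase, where 7.23% of all genes were called. Eif4e, the cap-binding factor, was higher (log2 fold change 0.38, adjusted p = 0.0477) and Tsc1, an inhibitor of mTORC1, lower (-0.41, adjusted p = 0.0247), 2 of 13 growth regulators. Nfe2l2, the oxidative stress factor NRF2, was lower (-0.50, adjusted p = 0.0115), as was Sesn1, a p53 target (-0.57, adjusted p = 0.0466), 2 of 14 other ATF4-linked genes. With lists this short, nothing is read from these counts about the lists. None of the 16 mitochondrial synthetase genes was called in any comparison by edgeR, and 0 had an unadjusted p under 0.05 here. Their median log2 fold change was -0.010 here, beside 0.15 for the 20 synthetases of the list, and the difference between these medians was not tested.

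Within fl/fl mice, ex-Foxp3 cells, which carried the label of past Foxp3-driven Cre but were sorted without Foxp3-GFP, had less mRNA of Slc7a5, Phgdh and Vars than labeled Treg cells. Slc7a5, the large neutral amino acid transporter, fell to 0.57 times, Phgdh to 0.60 times and Vars to 0.70 times the labeled level. In this comparison 3 of 33 genes were lower and 0 higher, where 2.04% of all genes tested were called lower and 4.09% in either direction. The log2 fold change was negative in 23 of the 33, with a median of -0.077 beside 0.0073 over all genes.

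Slc7a5 (chr8:121881146-121907686) had 11.9, 20.6 and 23.3 CPM in ex-Foxp3 fl/fl libraries and 26.5, 34.7 and 39.6 CPM in labeled fl/fl libraries. The groups did not overlap (log2 fold change -0.81 ± 0.21, adjusted p = 0.0239). Phgdh had 25.0, 29.8 and 42.3 CPM in ex-Foxp3 and 40.2, 54.2 and 63.4 CPM in labeled fl/fl libraries, with 1 library of each group overlapping (-0.73 ± 0.17, adjusted p = 0.00863). Vars had 145, 159.5 and 198 CPM in ex-Foxp3 and 193, 219 and 286 CPM in labeled fl/fl libraries, again with a narrow overlap (-0.51 ± 0.12, adjusted p = 0.0122). Shmt2 (chr10:127517123-127522444), which makes glycine and one-carbon units in mitochondria, had 26.7, 35.0 and 38.6 CPM in ex-Foxp3 and 41.7, 49.8 and 62.6 CPM in labeled fl/fl libraries. Its groups did not overlap, but it did not pass (-0.55 ± 0.17, adjusted p = 0.0635).

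The same-numbered libraries of these 2 populations moved together. With the number as a block 5 genes were called lower, Shmt2 (adjusted p = 0.0171) and Psat1 joining the 3. That fit called 9.0% of all genes in either direction. Phgdh and Vars kept their calls without each of the 12 libraries, and Slc7a5 lost its call without labeled 3 or ex-Foxp3 6 (adjusted p = 0.0501 and 0.0638). Without labeled fl/fl 4, 6 genes were called. The share of all genes called in that fit is not given here, so nothing is read from the count. In numbers 1 to 3 alone 4 genes were called, where 5.26% of all genes were, and in numbers 4 and above 1, Vars, where 1.8% were. Cell division markers summed to 645, 843 and 1281 CPM in ex-Foxp3 and 674, 1782 and 4208 CPM in labeled fl/fl libraries, and with that term 4 genes were called, where 6.11% of all genes were.

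Of the regulators, Myc, which drives growth genes, fell to 33.7 CPM in ex-Foxp3 fl/fl cells, against 61.9 CPM in labeled fl/fl cells, without overlap (log2 fold change -0.89, adjusted p = 0.0311). It was the 1 called of 13. Sesn1 fell to 34.8 CPM, against 55.4 CPM in labeled fl/fl cells (-0.67, adjusted p = 0.0311). Of 11 further serine and one-carbon genes 0 passed by edgeR, and their median log2 fold change was -0.43.

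In control mice the same comparison called 0 of 33 genes, where 0.353% of all genes were called. DESeq2 also called 0 of the 33. Vars came nearest, with 107, 151, 158, 146 and 150.1 CPM in ex-Foxp3 control libraries, against 179.7, 172, 186, 195 and 236 CPM in labeled control libraries. These groups did not overlap (log2 fold change -0.44 ± 0.14, adjusted p = 0.196), and with the replicate number as a block, which paired these libraries, Vars passed (adjusted p = 0.0322). Qars (-0.26, adjusted p = 0.393) and Psat1 (-0.50, adjusted p = 0.4297) were lower in value, and Sars was higher (0.22, adjusted p = 0.399), with overlapping groups. Qars had 112, 98.2, 124, 99.6 and 108 CPM in ex-Foxp3 control against 116, 146, 149, 122 and 114 CPM in labeled control libraries. Psat1 had 23.6, 34.2, 29.4, 22.4 and 25.0 CPM in ex-Foxp3 control against 43.0, 46.4, 45.1, 29.6 and 23.6 CPM in labeled control libraries. Sars had 171, 160.2, 158, 167 and 146 CPM in ex-Foxp3 control against 133, 139, 154, 135 and 128 CPM in labeled control libraries.

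The difference between the genotypes in this change was tested itself. For Phgdh it was -0.53 on the log2 scale (95% interval -1.03 to -0.035), for Farsb, a phenylalanine synthetase subunit, 0.57 (0.12 to 1.02), for Sars -0.28 (-0.52 to -0.045) and for Dars -0.21 (-0.52 to 0.11). None passed (adjusted p = 1 for each), 0 of 33 genes by edgeR or DESeq2 and 0 of 9921 (0%) being called. With the replicate number as a block, 0 of 33 and 0 of 9921 genes were called as well, and Phgdh was at -0.57 ± 0.22 (adjusted p = 1). The change in fl/fl mice is thus not shown to differ from that in control mice.

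Set against post-tamoxifen Treg cells in fl/fl mice, ex-Foxp3 cells had the largest set of lower genes of the comparisons made: Slc7a5, Phgdh, Shmt2, Psat1, Qars, Tars, Wars and Kars. Slc7a5 fell to 0.41 times, Phgdh to 0.53, Shmt2 to 0.58 and Psat1 to 0.59 times the post-tamoxifen level. The 4 synthetases Qars, Tars, Wars and Kars, for glutamine, threonine, tryptophan and lysine, fell less, to between 0.79 and 0.81 times. In all 8 of 33 genes were lower and 0 higher, where 9.39% of all genes tested were called lower and 15.2% in either direction. The log2 fold change was negative in 30 of the 33, with a median of -0.22 beside 0.015 over all genes.

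For Slc7a5 the ex-Foxp3 fl/fl values given above stood against 39.7, 44.8 and 63.7 CPM in post-tamoxifen fl/fl libraries, without overlap (log2 fold change -1.28 ± 0.21, adjusted p = 7.67e-05). Shmt2 had 44.7, 53.1 and 106 CPM in post-tamoxifen fl/fl libraries, also without overlap with ex-Foxp3 fl/fl (-0.79 ± 0.17, adjusted p = 0.00166). Psat1 had 26.0, 28.6 and 33.01 CPM in ex-Foxp3 fl/fl, against its post-tamoxifen fl/fl values given above, without overlap (-0.75 ± 0.19, adjusted p = 0.0067). Phgdh overlapped only through post-tamoxifen fl/fl library 6 (-0.92 ± 0.17, adjusted p = 0.000279).

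Among the synthetases, Qars (chr9:108508005-108515941) had 97.5, 116 and 125 CPM in ex-Foxp3 fl/fl and 126, 141 and 177 CPM in post-tamoxifen fl/fl libraries, narrowly without overlap (-0.35 ± 0.10, adjusted p = 0.0122). Tars (chr15:11383663-11399658) had 73.0, 84.5 and 98.2 CPM in ex-Foxp3 fl/fl and 95.5, 104 and 133 CPM in post-tamoxifen fl/fl libraries, overlapping at the edge (-0.35 ± 0.11, adjusted p = 0.0314). Wars had 53.4, 61.3 and 69.0 CPM in ex-Foxp3 fl/fl, overlapping the post-tamoxifen fl/fl libraries (-0.34 ± 0.12, adjusted p = 0.0427). Kars (chr8:111993440-112011323) had 79.7, 95.9 and 108 CPM in ex-Foxp3 fl/fl and 89.2, 117 and 136 CPM in post-tamoxifen fl/fl libraries, overlapping widely (-0.30 ± 0.10, adjusted p = 0.0489).

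Slc7a5, Phgdh, Shmt2, Psat1 and Qars kept their calls without each of the 12 libraries. Tars lost its call without 4 of them, Wars without 5 and Kars without 8. Without post-tamoxifen fl/fl 5 or ex-Foxp3 fl/fl 6, 5 genes were called. The share of all genes called in those fits is not given here. Myeloid markers moved with this comparison: they summed to 8.12, 13.4 and 34.4 CPM in ex-Foxp3 fl/fl and 92.4, 239 and 1109 CPM in post-tamoxifen fl/fl libraries, without overlap. With their sum as a term 1 gene, Shmt2, stayed past the threshold (adjusted p = 0.0367), where 2.99% of all genes did; since the marker ranges do not overlap, the term and the populations cannot be told apart, and Slc7a5 was then at -0.67, Phgdh at -0.53 and Psat1 at -0.060. With the cell division term 4 genes did (Slc7a5, Phgdh, Shmt2 and Qars), in numbers 1 to 3 alone 3 genes (Slc7a5, Phgdh and Psat1) and in numbers 4 and above alone 6, where 12%, 11% and 12.4% of all genes were called.

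Around the program, ex-Foxp3 fl/fl cells had less Myc than post-tamoxifen fl/fl cells (33.7 CPM in ex-Foxp3, against 104.6 CPM in post-tamoxifen, log2 fold change -1.63, adjusted p = 3.99e-05). The cytosolic one-carbon genes Shmt1 (-1.77, adjusted p = 0.0024) and Mthfd1 (-0.65, adjusted p = 0.00424) were lower, 2 of 11. All 3 eIF2 subunit genes were lower: Eif2s1 at -0.33, Eif2s2 at -0.35 and Eif2s3x at -0.47 on the log2 scale (adjusted p = 0.0459, 0.0258 and 0.00388). The eIF2 kinase gene Eif2ak4, which encodes the uncharged tRNA sensor GCN2, was higher (0.58, adjusted p = 0.0325), as was Impact, an inhibitor of GCN2 (0.98, adjusted p = 0.000206). How many genes of the eIF2 list were called here is not given. Aimp1, a scaffold of the multi-synthetase complex, was lower (-0.48, adjusted p = 0.0198), 1 of 5 partners tested. Hmox1, a heme-degrading enzyme high in macrophages, was at 11.5 CPM in ex-Foxp3, against 113 CPM in post-tamoxifen fl/fl cells (-3.30, adjusted p = 5.56e-05), Sesn1 was lower (-1.24, adjusted p = 2.03e-05) and Nfe2l2 higher (0.53, adjusted p = 0.00205).

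In control mice, ex-Foxp3 and post-tamoxifen cells differed in 0 of the 33 genes by edgeR and by DESeq2, where edgeR called 5.33% of all genes. Slc7a5 was nearest, with 26.3, 25.2, 25.1, 15.1 and 17.5 CPM in ex-Foxp3 control, against 45.7, 20.2, 42.5, 41.9 and 22.9 CPM in post-tamoxifen control libraries. Post-tamoxifen controls 2 and 5 overlapped the ex-Foxp3 libraries (log2 fold change -0.65 ± 0.24, adjusted p = 0.117), and without control 2 the gene passed (-0.79, adjusted p = 0.0248). Aars (0.20, adjusted p = 0.389), Slc1a5 (0.22, adjusted p = 0.422) and Nars (-0.24, adjusted p = 0.427) did not pass and overlapped. Aars had 108, 111, 105, 99.6 and 119.6 CPM in ex-Foxp3 control libraries, against the post-tamoxifen control values given above. Slc1a5 had 118, 131, 122, 154 and 157 CPM in ex-Foxp3 control against 103, 118, 113, 111 and 140.1 CPM in post-tamoxifen control libraries. Nars, for asparagine, had 102, 109.8, 107, 69.8 and 93.1 CPM in ex-Foxp3 control against 159, 135, 86.1, 99.4 and 98.9 CPM in post-tamoxifen control libraries. Myc was lower here as well (53.2 CPM in ex-Foxp3, against 114 CPM in post-tamoxifen control cells, log2 fold change -1.11, adjusted p = 0.0074), as were Hmox1 (-3.88, adjusted p = 0.00045) and the glutamine transporter gene Slc38a2 (-0.41, adjusted p = 0.0364). Slc38a1, of the same family, was higher (0.35, adjusted p = 0.0295). Myeloid markers summed to 6.11, 11.3 and 15.5 CPM in ex-Foxp3 control and 21.9, 304 and 719 CPM in post-tamoxifen control libraries, without overlap. With their sum as a term 0 of the 33 genes were called, where 0.0101% of all genes were, and Slc7a5 changed sign. Since the marker ranges do not overlap, that term and the populations cannot be told apart. The comparisons with post-tamoxifen or labeled cells share libraries, so their values are given side by side and not counted against each other.

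Labeled and post-tamoxifen Treg cells, which both express Foxp3, differed in few of these genes. In fl/fl mice 0 of 33 passed by edgeR and by DESeq2, where edgeR called 4.58% of all genes. The log2 fold change of labeled over post-tamoxifen was negative in 27 of the 33 (median -0.15, beside -0.017 over all genes). Slc7a5 did not overlap between the groups whose values are given above (-0.48 ± 0.21, adjusted p = 0.218). Farsb had 24.7, 31.1 and 43.1 CPM in labeled fl/fl and 32.7, 42.2 and 53.0 CPM in post-tamoxifen fl/fl libraries (-0.39 ± 0.16, adjusted p = 0.168). Farsa, its partner subunit, had 44.7, 49.6 and 56.4 CPM in labeled fl/fl and 53.0, 67.1 and 70.3 CPM in post-tamoxifen fl/fl libraries (-0.33 ± 0.14, adjusted p = 0.171). Mars, for methionine, had 31.0, 41.1 and 56.2 CPM in labeled fl/fl and 44.0, 52.7 and 62.04 CPM in post-tamoxifen fl/fl libraries (-0.33 ± 0.15, adjusted p = 0.232). All 3 overlapped. The eIF2 subunit gene Eif2s2 was lower in labeled fl/fl cells (98.2 CPM, against 136 CPM in post-tamoxifen fl/fl cells, log2 fold change -0.46, adjusted p = 0.00973), as was Hmox1 (-3.19, adjusted p = 0.000881).

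In control mice Vars was the 1 of 33 genes called, higher in labeled cells, where 3.98% of all genes were called higher and 7.93% in either direction. Labeled and post-tamoxifen control libraries, with the values given above, overlapped only through post-tamoxifen control 1 (log2 fold change 0.45 ± 0.14, adjusted p = 0.0348). The call was lost without labeled control 4 or 5 or post-tamoxifen control 3 or 5 (adjusted p from 0.0617 to 0.119). Without post-tamoxifen control 1 or 2, 2 genes were called, and the share of all genes called in those fits is not given here. Myeloid markers moved with this comparison, summing to 18.8, 23.4 and 30.01 CPM (lowest, median, highest) in labeled control and 21.9, 304 and 719 CPM in post-tamoxifen control libraries. With their sum as a term 3 genes were called (Asns, Psat1 and Vars), where 3.56% of all genes were. Asns did not pass: its values were 7.55, 1.92, 0.902, 1.54 and 0 CPM in labeled control libraries, against 2.54 CPM and 4 libraries at 0 in post-tamoxifen controls (31 reads in labeled against 2 in post-tamoxifen controls, adjusted p = 0.0645). Sars was lower in value (-0.24 ± 0.09, adjusted p = 0.0916), with 156, 176, 173, 159 and 151 CPM in post-tamoxifen control libraries beside the labeled values above. Tars had 87.6, 122, 111, 83.5 and 108 CPM in labeled control against 79.9, 104, 75.8, 73.0 and 86.5 CPM in post-tamoxifen control libraries (0.28 ± 0.12, adjusted p = 0.174). Both overlapped. Slc38a2 (-0.45, adjusted p = 0.0154), Nfe2l2 (-0.41, adjusted p = 0.0439) and Hmox1 (-3.24, adjusted p = 0.000506) were lower in labeled control cells.

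The labeled minus post-tamoxifen change was then set between the genotypes in 1 test. It was lower in fl/fl mice for 28 of 33 genes (median -0.26 beside -0.019 over all genes). None of the 33 passed by edgeR or DESeq2, where edgeR called 0.0202% of all genes. Tars was at -0.47 (95% interval -0.79 to -0.14), Wars at -0.48 (-0.82 to -0.13), Psat1 at -0.62 (-1.19 to -0.052) and Farsb at -0.48 (-0.93 to -0.033), with adjusted p from 0.552 to 0.632. The genotype difference in post-tamoxifen cells is thus not shown to differ from that in labeled cells.

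Between labeled fl/fl cells, which carry the recombination label, and labeled control cells, none of these genes passed the test. Of 33 genes 0 passed by edgeR and by DESeq2, where edgeR called 0.0101% of all genes. The signs were even (17 positive, 16 negative, median 0.0092 beside 0.0029). Slc1a5 was nearest, with 152, 161 and 167 CPM in fl/fl libraries, against 159.7, 119.9, 114, 119 and 111 CPM in control libraries. Control 1 lay among the fl/fl libraries and the other 4 below them (log2 fold change 0.36 ± 0.12, adjusted p = 0.267). Farsb (-0.41 ± 0.16, adjusted p = 0.434) had 54.7, 38.3, 41.5, 41.9 and 40.1 CPM in the controls, overlapping the fl/fl values given above. Sars (0.19 ± 0.09, adjusted p = 0.501) and Vars (0.28 ± 0.13, adjusted p = 0.522) also overlapped, Sars with 136, 159.5 and 169 CPM in labeled fl/fl libraries.

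Ex-Foxp3 fl/fl and ex-Foxp3 control cells likewise differed in 0 of 33 genes by edgeR and by DESeq2, where edgeR called 0.181% of all genes. Positive and negative values were 18 and 15 (median 0.0075 beside 0.005). Slc1a5 had 147, 159 and 201 CPM in ex-Foxp3 fl/fl libraries, overlapping the controls given above (0.27 ± 0.12, adjusted p = 0.438), and was at 0.53 in numbers 1 to 3 alone (adjusted p = 0.0459) and -0.042 in numbers 4 and above. Shmt2 overlapped the controls' 38.1, 47.2, 50.7, 33.9 and 54.4 CPM (-0.41 ± 0.18, adjusted p = 0.469). Lars, for leucine, had 75.7, 83.3 and 98.3 CPM in fl/fl against 88.5, 98.9, 86.5, 107 and 97.5 CPM in control libraries (-0.19 ± 0.10, adjusted p = 0.613). Gars, for glycine, had 101, 109 and 156 CPM in fl/fl against 95.5, 103, 100.5, 103 and 85.0 CPM in control libraries (0.25 ± 0.13, adjusted p = 0.624). Of the neighbours, Sesn1 was lower in ex-Foxp3 fl/fl cells (34.8 CPM, against 81.4 CPM in ex-Foxp3 control cells, log2 fold change -1.22, adjusted p = 0.000704), the 1 called of 14 other ATF4-linked genes.

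Chimeric knockout cells, from mice where neighbouring cells keep Uhrf1, showed no called difference in these genes. By edgeR over 9569 genes, 0 of 32 passed, as by DESeq2, where edgeR called 2.41% of all genes. Signs were even at 16 and 16, with a median log2 fold change of -0.015 beside 0.00085. The B and plasma cell markers summed to 82.8 and 81.1 CPM in chimera controls 3 and 4, against 5.44 to 15.4 CPM in the other chimera libraries. Without both of these controls 0 genes of the list were called, where 0.962% of all genes were. Hars, for histidine, had 49.97, 67.5, 74.2 and 75.4 CPM in knockout libraries, against 56.0, 51.1, 43.7 and 52.5 CPM in control libraries. Knockout 1 lay among the controls (0.38 ± 0.14, adjusted p = 0.149), and without it the gene passed (0.51, adjusted p = 0.0492). Hars shares its start region with Hars2 on the opposite strand, so its reads may include that gene's.

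Vars had 185, 168, 174 and 174 CPM in knockout libraries, against 203, 193, 195 and 236 CPM in control libraries, without overlap (-0.24 ± 0.09, adjusted p = 0.154). Farsb had 54.8, 53.5, 45.5 and 54.5 CPM in knockout against 38.9, 42.8, 39.9 and 44.1 CPM in control libraries, also without overlap (0.34 ± 0.13, adjusted p = 0.228). Phgdh had 40.7, 43.1, 34.1 and 30.1 CPM in knockout against 43.9, 45.4, 47.8 and 46.1 CPM in control libraries, again without overlap (-0.30 ± 0.15, adjusted p = 0.376). None of the 3 passed the test. Asns, too low to be tested here, had 5 reads in the 4 knockout libraries and 24 in the 4 controls. Mat2a, which makes the methyl donor S-adenosylmethionine, was the 1 of 10 further serine and one-carbon genes called, at 196 CPM in knockout against 149 CPM in control cells without overlap (0.40 ± 0.09, adjusted p = 0.0113).

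**Figure D5:**
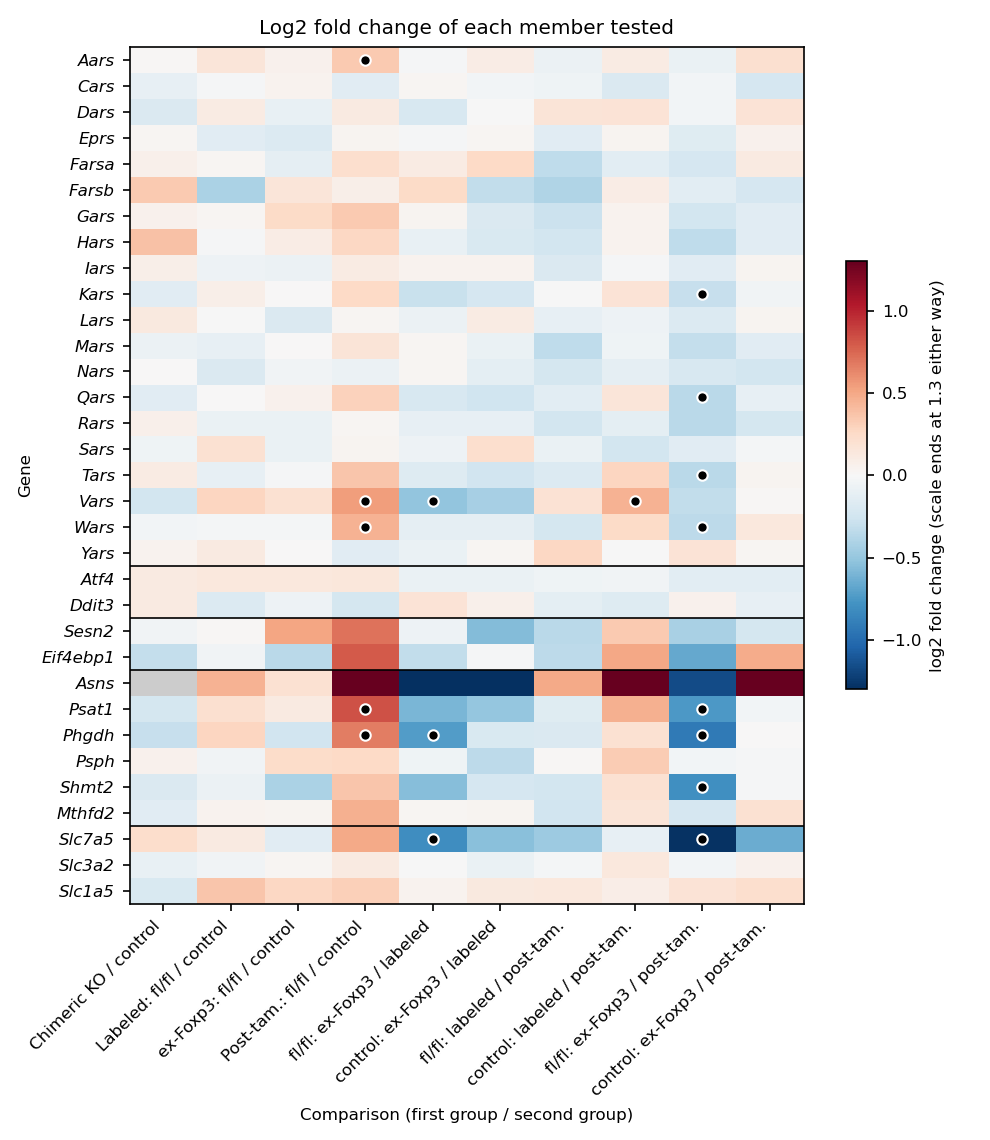
Log2 fold change (first group over second) of each gene tested, in 10 comparisons, in the order synthetases, transcription factors, stress genes, synthesis enzymes and transporters; black dots mark adjusted p under 0.05, colours end at 1.3 either way (Asns goes past it) and grey means not tested. The 17 dots lie in 4 comparisons, 5 of them in post-tamoxifen fl/fl over control and 8 in ex-Foxp3 over post-tamoxifen fl/fl.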

How the data were processed

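RNA of sorted mouse T cells was isolated with the AllPrep DNA/RNA Micro kit and made into libraries with a SMARTer stranded total RNA kit, per the labels' protocols. The authors deposited whole-number read counts per gene for 41 libraries, not normalized. Per the submitters' processing notes, bcl2fastq 2.17.1.14 and TopHat2 2.1.0 were used with mm10; the counting tool, its annotation and its strand setting are not given in the sources used here, so 14 of the 36 genes that overlap another gene may share its reads. The series text calls the samples biological replicates, and no pair of libraries in a group was a repeat (smallest chi-square per degree of freedom 2.60).

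The chimera (8 libraries) and pulse-chase (33 libraries) experiments were fitted apart, on groups only, with edgeR 4.0.16 in R 4.3.3 (TMM factors 0.966 to 1.03, filterByExpr by group, robust quasi-likelihood F-test, 2-sided). Every adjusted p is a Benjamini-Hochberg value over all genes tested (9569 and 9921), with a threshold of 0.05; log2 fold changes are given ± SE. Lars2, with 1.78% to 4.09% of all counts in a library, was left out. A further promoter stretch is not reported here. Levels per kb used exon lengths of the GENCODE M21 annotation. Total counts per library were 781437 to 5709702, which limits precision for low genes. Alternatives were other scalings, no count filter, DESeq2 1.42.0, the replicate number as a block, the compared groups alone, each library left out, numbers 1 to 3 or 4 and above alone, and 3 fits added after seeing the data (without 2 libraries low in Foxp3, and with a cell division or a myeloid marker term). The chimera was also fitted without controls 3 and 4 together. The block was the number in genotype comparisons, and the genotype with the number in comparisons of populations and in the differences between genotypes of these.

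The populations of a genotype share their numbers in the labels, which do not say that a number marks the same mouse. The main fit had no block and so treated these libraries as independent. A replicate number was taken to pair libraries where every pair's deviations from the group means correlated above 0.1. This held for ex-Foxp3 and labeled fl/fl (0.14 to 0.36), ex-Foxp3 and labeled control (0.14 to 0.30), labeled and post-tamoxifen fl/fl (0.24 to 0.44) and ex-Foxp3 and post-tamoxifen fl/fl cells (0.13 to 0.39).

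Named with values were Atf4, the genes called in a comparison (at most 8) and, where fewer than 4 were called, those with the smallest p up to 4. Where levels of these are given, they are per library in the chimera and control groups, and mostly lowest, median and highest in the pulse-chase fl/fl groups. Of each pathway list, up to 4 called genes were named, with Eif2s1 in addition in ex-Foxp3 against post-tamoxifen fl/fl cells. The 36 genes and the lists were chosen with earlier results of these data known.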

Additional observations from a re-analysis of the deposited data

Results flagged for a closer look

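In 21 of 262 pairs of a tested gene and a group, 1 library lay far from the rest by Dixon's criterion, where chance flags about 1 in 20 groups, or 13.1 pairs. No library held more than 4. Labeled control 1 held 4: Farsb was high there at 54.73 CPM (others 38.32 to 41.94), Slc1a5 high at 159.7 CPM (others 110.8 to 119.9), Asns high at 7.549 CPM (others 0 to 1.916) and Sesn2 low at 6.039 CPM (others 10.47 to 11.73). In post-tamoxifen fl/fl 5, Shmt2 was high at 106.1 CPM (others 44.65 to 57.14) and Mthfd2 at 99.93 CPM (others 53.55 to 69.97), both mitochondrial one-carbon genes. In post-tamoxifen control 1, Mthfd2 was high at 86.23 CPM (others 37.3 to 51.4) and Asns at 2.536 CPM, the others being at 0. In post-tamoxifen fl/fl 1, Nars was high at 140 CPM (others 95.88 to 107.8) and Sars low at 140 CPM (others 166.2 to 181).

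Phgdh was high in post-tamoxifen control 4 at 50.95 CPM (others 31.7 to 34.12), which lies in the group it was called against. Atf4 was low in ex-Foxp3 fl/fl 1 at 103.2 CPM (others 124 to 135.5) and high in labeled fl/fl 5 at 162.8 CPM (others 118.2 to 133.3). Among the synthetases, Gars was high in ex-Foxp3 fl/fl 3 at 156.3 CPM (others 101 to 113.6) and Mars high in labeled control 2 at 54.41 CPM (others 39.25 to 43.09). In ex-Foxp3 controls, Vars was low in library 1 at 107.3 CPM (others 145.9 to 158.1), Kars low in library 5 at 83.5 CPM (others 94.86 to 96) and Eif4ebp1 high in library 2 at 12.28 CPM (others 3.408 to 5.9). In the chimera, Farsb was low in knockout 3 at 45.51 CPM (others 53.54 to 54.75), Mars low in knockout 2 at 44.65 CPM (others 50.93 to 51.4) and Slc3a2 low in control 1 at 61.59 CPM (others 75.1 to 76.63).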

How the results depend on the processing

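Of the alternatives for named genes, 1122 kept their direction and side of the threshold, 77 lost a call, 21 gained one and 4 reversed, none of these a called gene. The 4 were Slc1a5 in ex-Foxp3 fl/fl against control (-0.042 in numbers 4 and above), Farsb in the genotype difference of the labeled minus post-tamoxifen change (0.091 in numbers 4 and above) and, with the myeloid marker term, Slc7a5 in labeled against post-tamoxifen fl/fl (0.074) and in ex-Foxp3 against post-tamoxifen control (0.022); the cause was not tested. The other scalings and the fit without a count filter moved no count of calls by over 1.5 times.

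Counts of called genes moved as follows, with the share of all genes called in the same fit in parentheses. For fits without 1 library that share is not given here. In post-tamoxifen fl/fl against control, 5 genes (7.23%) became 8 by DESeq2 (9.89%), 1 with those 2 groups alone (1.57%) and 0 in numbers 4 and above (2.1%). They became 1 with the cell division term (3.06%), and 3 to 11 without 1 library. In ex-Foxp3 against labeled fl/fl, 3 (4.09%) became 5 by DESeq2 (5.61%), 1 in numbers 4 and above (1.8%), and 2 to 6 without 1 library. In ex-Foxp3 against labeled control, 0 (0.353%) became 1 with those groups alone (1.5%). In ex-Foxp3 against post-tamoxifen fl/fl, 8 (15.2%) became 3 in numbers 1 to 3 (11%) and 4 with the cell division term (12%). They became 1 with the myeloid term (2.99%) and 5 to 9 without 1 library. In ex-Foxp3 against post-tamoxifen control, 0 (5.33%) became 1 without the libraries low in Foxp3 (9.29%), and 0 to 1 without 1 library. In labeled against post-tamoxifen control, 1 (7.93%) became 2 by DESeq2 (9.25%), 0 in numbers 1 to 3 (1.26%) and 2 without the libraries low in Foxp3 (11.6%). It became 3 with the myeloid term (3.56%) and 0 to 2 without 1 library. In ex-Foxp3 fl/fl against control 0 (0.181%) became 1 in numbers 1 to 3 (1.44%), and in the chimera 0 (2.41%) became 0 to 1 without 1 library.

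With the replicate number as a block, where the numbers paired the libraries, 5 genes were called in ex-Foxp3 against labeled fl/fl (9.0% of all genes). The block gave 1 gene in ex-Foxp3 against labeled control (2.13% of all genes) and 9 in ex-Foxp3 against post-tamoxifen fl/fl (20.8% of all genes). Where the numbers paired the libraries, no other call changed. Where the libraries share only a number, the block gave 10 genes in post-tamoxifen fl/fl against control (16.6% of all genes, against 7.23% without the block). In ex-Foxp3 against post-tamoxifen control the block gave 1 gene (8.85% of all genes). There the labels share genotype and number, but not every pair correlated above 0.1 (0.050 to 0.17). In these comparisons, in this order, 2 of 5 and 3 of 5 libraries correlated best with their own number. Depth limits the reading of Asns, Trib3, Chac1 and Slc7a11, which had 0 reads in 7, 10, 29 and 28 of the 33 pulse-chase libraries.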
